A study of Mus musculus with 19 samples.

Results

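Galectins are animal lectins that bind beta-galactoside sugars on glycoproteins, and the genes described here are Lgals1, Lgals3, Lgals8 and Lgals9, together with Lgals3bp, whose product binds galectin-3. The 5 genes were chosen by symbol from a table of 20998 genes, and all 5 were measured. The cells came from mouse bone marrow, sorted as macrophages or as inflammatory monocytes positive for Ly6C, and their expression was measured on Affymetrix MoGene 2.0 ST arrays. The marrow with metastasis came from mice that carried MetBo2 cells, which are 1 clone, selected for homing to bone, of Met-1, a mammary tumour line from a polyoma middle T mouse. Female mice had received 100000 of these cells into the heart at 4 weeks of age, and the other marrow came from healthy mice. The groups were macrophages from metastasis (n = 5 arrays), macrophages from healthy marrow (n = 5), monocytes from metastasis (n = 4) and monocytes from healthy marrow (n = 5). The labels give no strain, no age or injection for the healthy mice, no sort marker for the macrophages, no batch, and do not say whether replicates are different animals. The p-values therefore measure the spread between these arrays only, and where age, injection or batch differed with the tumour, they and it cannot be told apart.

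Galectins are made in the cytosol and leave the cell by a route that bypasses the endoplasmic reticulum. Outside the cell they cross-link glycoproteins that carry N-acetyllactosamine, and inside it they bind sugars that are exposed when a vesicle is damaged. Galectin-1 has a single sugar-binding domain and pairs with itself. Galectin-3 joins a single such domain to a long flexible tail and is the Mac-2 antigen of macrophages. Galectin-8 and galectin-9 carry a pair of different sugar-binding domains in one chain. In myeloid cells and tumours these proteins are known for effects on T cell survival, on adhesion and on the clearance of damaged vesicles. Lgals3bp encodes a secreted scavenger receptor family glycoprotein that is not itself a galectin, and it and Lgals9 are known as interferon-inducible genes.

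The values are log2 expression as deposited, and array medians lay between 4.45 and 4.55. They compare groups for 1 gene and not 1 gene with another, since each gene has its own probes. A RefSeq gene table also lists a pseudogene of Lgals1, Lgals1-ps1, and whether the probes separate that copy from the gene is not stated in the labels, so the Lgals1 values are uncertain to that extent. In earlier results of these data 3 macrophage arrays stood apart, healthy replicates 1 and 5 and metastasis replicate 2, and macrophage differences are also given without them. The sorts were checked with markers, by log2 differences of single genes and by mean log2 values over lists. Of 7 Ly6C-high monocyte genes, 6 were lower in macrophages than in monocytes of healthy marrow, among them F13a1 (-2.20) and Vcan (-2.25), and 1 was higher, Itgam (0.92). Of 12 macrophage genes, 6 were higher in macrophages, led by Vcam1 (2.05) and Spic (1.37), and 3 were lower, Adgre1 (-0.63), Csf1r (-0.51) and Cd68 (-0.69). Macrophage arrays also carried neutrophil genes, with a mean over 10 genes of 10.1 to 10.4 in metastasis and 9.54 to 10.1 in healthy marrow, against 8.14 to 8.67 and 8.22 to 8.90 in the monocyte groups. Of those 10 genes, 6 were higher and 3 lower in macrophages than in monocytes of healthy marrow. Over the whole table, 10% of genes were higher and 18% lower in that comparison. The arrays labelled macrophages thus went against part of their label. In such sorted samples, fewer cells of a type and less RNA per cell cannot be told apart.

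RefSeq promoter windows, from 250 bases before to 50 after the start on the GRCm38.p6 build, were found for 4 of the 5 genes, and Lgals1 was not matched. Those of Lgals3bp and Lgals9 are shown because the expression of Lgals3bp ran with that of interferon-stimulated genes, as described further on, and because the windows differ in these patterns. Capitals mark matches, on either strand, to AANNGAAA, an interferon regulatory factor pattern, and to the core of the interferon-stimulated response element, taken as a pair of GAAA with any 2 bases between them, which always contains the shorter pattern. The Lgals3bp window lies at chr11:118401910-118402209 and the Lgals9 window at chr11:78984875-78985174, both on the minus strand.
Lgals3bp: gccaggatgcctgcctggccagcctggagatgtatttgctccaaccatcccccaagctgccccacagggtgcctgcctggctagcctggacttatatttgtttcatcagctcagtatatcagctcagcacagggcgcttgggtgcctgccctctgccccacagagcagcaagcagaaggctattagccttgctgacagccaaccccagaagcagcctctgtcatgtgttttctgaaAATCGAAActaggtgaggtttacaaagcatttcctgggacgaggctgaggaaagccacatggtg
Lgals9: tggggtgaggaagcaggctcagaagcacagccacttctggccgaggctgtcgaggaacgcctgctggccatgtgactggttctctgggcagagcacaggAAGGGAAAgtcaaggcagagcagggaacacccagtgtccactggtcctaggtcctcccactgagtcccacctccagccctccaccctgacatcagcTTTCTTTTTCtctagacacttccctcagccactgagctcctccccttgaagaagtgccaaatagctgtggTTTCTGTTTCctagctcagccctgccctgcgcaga

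The Lgals3bp window held a single match to AANNGAAA, which began 14 bases before the start, and none to the longer core. The Lgals9 window held 2 matches to the core, one beginning 55 bases before the start and the other 15 bases past it, and 3 to the shorter pattern. Of 32851 promoter windows in the table, 3.44% held the core and 23.9% the shorter pattern. The windows of Lgals3 and Lgals8 held neither. None of these 4 windows held TTCNNNGAA, the gamma-activated site, which 8.3% of all windows held. These matches describe letters and do not show binding.

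Lgals1 and Lgals3 differed between the cell types. In metastasis Lgals1 was 2.94-fold and Lgals3 1.42-fold lower in macrophages than in monocytes, and in healthy marrow they were 3.88-fold and 1.31-fold lower. Lgals9 leaned the other way, with 1.23-fold more in macrophages of healthy marrow. No galectin gene passed the test for a difference between metastasis and healthy marrow in either cell type, and Lgals1 in macrophages came nearest.

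**Figure D1:**
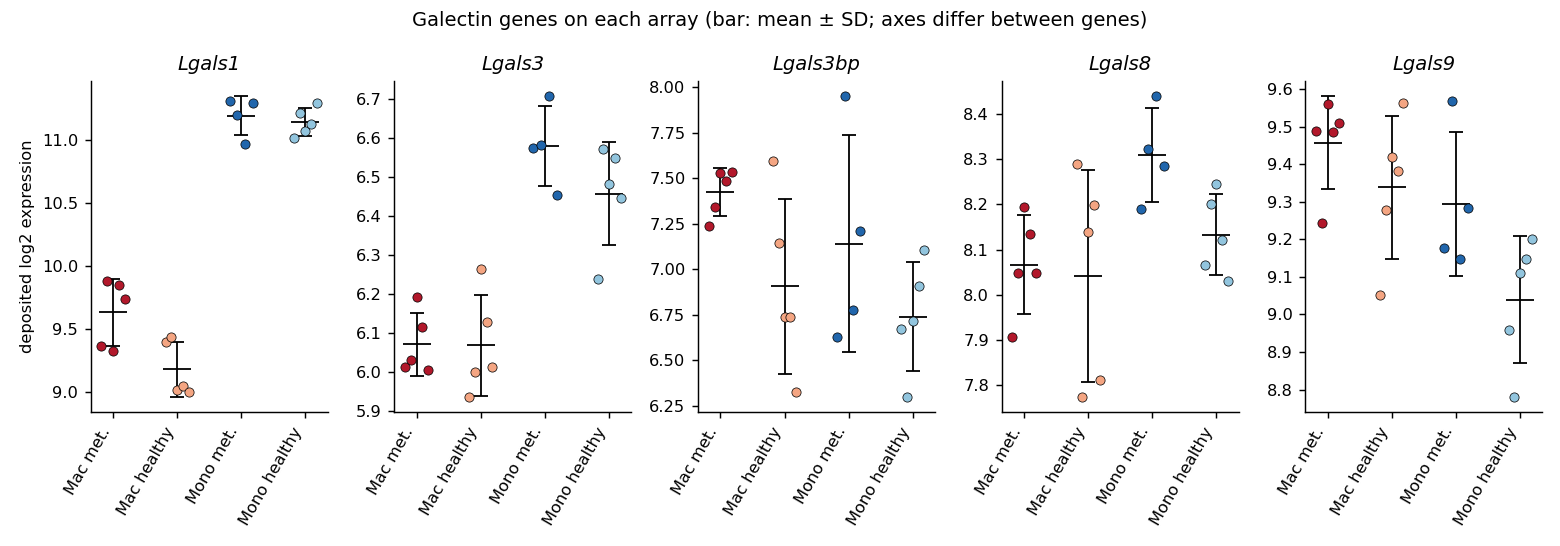
Deposited log2 expression of each galectin gene (vertical axes, a different range for each gene) on every array of the 4 groups, 1 point per array, with the mean and SD as bars. Lgals1 lies between 9.00 and 9.88 on all macrophage arrays and between 10.97 and 11.30 on all monocyte arrays, while Lgals3bp spreads widely within groups.

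Galectin-1 is secreted by many stromal and immune cells and is known to cross-link glycoproteins on T cells. Macrophages from metastasis had Lgals1 values of 9.36, 9.88, 9.32, 9.85 and 9.74, against 9.40, 9.44, 9.02, 9.05 and 9.00 in macrophages from healthy marrow. Monocytes from metastasis had 11.30, 11.19, 10.97 and 11.29, against 11.01, 11.21, 11.07, 11.12 and 11.29 in monocytes from healthy marrow. Every monocyte array lay above every macrophage array. The metastasis and healthy macrophage groups overlapped only because replicates 1 and 3 of metastasis fell below the highest 2 healthy arrays, and the monocyte groups overlapped throughout. By limma, macrophages minus monocytes stood at -1.56 ± 0.13 (SE) in metastasis, with an adjusted p of 4.52e-09, and at -1.96 ± 0.12 in healthy marrow, with an adjusted p of 3.2e-11. Over the whole table, 26.5% of genes passed this test in metastasis and 28% in healthy marrow, so a call between the cell types was common, and Lgals1 ranked 212 and 110 of 20998 genes by p. In those comparisons 15.2% and 13.7% of genes were lower on every macrophage array than on any monocyte array. Neutrophil, B lineage and T and NK cell genes were mostly higher on macrophage arrays, with median log2 differences of 1.21, 1.71 and 0.78 in healthy marrow. Of the 10 neutrophil genes, 3 were lower there. Dendritic cell, eosinophil and basophil, and megakaryocyte and platelet genes had medians of 0.70, 0.62 and 0.46. The part of these genes in the Lgals1 difference was not tested, nor was it for the cell type differences of Lgals3 and Lgals9 given below.

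In macrophages the metastasis mean of Lgals1 was 9.63 ± 0.27 and the healthy mean 9.18 ± 0.22 (SD, n = 5 each), a difference of 0.45 ± 0.12 (SE) with a 95% interval of 0.20 to 0.70. It did not pass after adjustment over all genes (adjusted p = 0.07 by limma). It passed with a trended, robust variance model (adjusted p = 0.0416), with dim genes left out (0.0476) and without macrophages metastasis replicate 3 (0.0423). A fit of the macrophage arrays alone gave an adjusted p of 0.275, and without the 3 arrays that stood apart the difference was 0.40 (adjusted p = 0.16). In monocytes the difference was 0.05 ± 0.13, with an interval of -0.22 to 0.32. The effect of metastasis was greater in macrophages than in monocytes by 0.40 ± 0.18, which did not pass (adjusted p = 0.593). The order of group means was monocytes from metastasis, monocytes from healthy marrow, macrophages from metastasis, macrophages from healthy marrow. Of neighbours in it, only monocytes of healthy marrow and macrophages from metastasis differed by the test (adjusted p = 2.45e-09).

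Galectin-3 binds glycans at the cell surface and on damaged lysosomes. Lgals3 read 6.01, 6.03, 6.19, 6.12 and 6.00 in macrophages from metastasis, against 5.94, 6.00, 6.26, 6.13 and 6.01 in macrophages from healthy marrow. In monocytes from metastasis it read 6.57, 6.58, 6.71 and 6.45, against 6.24, 6.57, 6.48, 6.55 and 6.45 in monocytes from healthy marrow. The metastasis groups of the 2 cell types did not overlap, whereas the lowest healthy monocyte array lay below the highest healthy macrophage array. Macrophages were lower than monocytes by the test in metastasis (-0.51 ± 0.09, SE, adjusted p = 0.000141 by limma) and in healthy marrow (-0.39 ± 0.09, adjusted p = 0.00109). The tumour-bearing and healthy groups overlapped in both cell types. The metastasis differences were 0.0030 ± 0.09 (SE) in macrophages, with an interval of -0.17 to 0.18, and 0.12 ± 0.09 in monocytes, with an interval of -0.07 to 0.31. In the order of group means, which was that of Lgals1, only monocytes of healthy marrow and macrophages from metastasis differed among neighbours (adjusted p = 0.00124). The sign in macrophages turned with array weights, quantile normalization and equal array medians, and without the 3 arrays that stood apart.

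Lgals3bp, the galectin-3 binding protein gene, was the most variable of the 5. Its pooled SD within groups was 0.40, above that of 98.4% of genes, against a median of 0.18 over all genes. Macrophages from metastasis had 7.24, 7.34, 7.53, 7.48 and 7.54, against 7.60, 7.14, 6.74, 6.74 and 6.33 in macrophages from healthy marrow. Healthy replicate 1, at 7.60, exceeded all metastasis arrays, and the other 4 healthy arrays lay below all of them. Monocytes from metastasis had 6.63, 7.95, 6.78 and 7.21, against 6.67, 6.30, 6.72, 6.91 and 7.10 in monocytes from healthy marrow, and these groups overlapped.

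The metastasis difference of Lgals3bp was 0.52 ± 0.22 (SE) in macrophages, with an interval of 0.06 to 0.98, and 0.40 ± 0.23 in monocytes, with an interval of -0.08 to 0.89. Neither passed over all genes (adjusted p = 0.29 and 0.761 by limma). Without macrophages healthy replicate 1 the macrophage difference was 0.69 and still did not pass (adjusted p = 0.137). Without the 3 arrays that stood apart it was 0.58 (adjusted p = 0.247), and without monocytes metastasis replicate 2 the monocyte difference was 0.13. The order of group means was macrophages from metastasis, monocytes from metastasis, macrophages from healthy marrow, monocytes from healthy marrow, and no neighbours in it differed by the test. The ends of that order did differ, with macrophages from metastasis 1.61-fold above monocytes from healthy marrow, all arrays higher (adjusted p = 0.0226 by limma), where 26.8% of genes passed and 7.99% were higher on all arrays.

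Within groups, Lgals3bp ran with interferon-stimulated genes. Over 17 such genes, the array with the highest mean was also the array with the highest Lgals3bp in 3 of 4 groups, and the lowest array was the same in 2. Macrophages healthy replicate 1 had an interferon gene mean of 6.09 and replicate 5 one of 5.58, the ends of their group for both measures. Monocytes metastasis replicate 2, with Lgals3bp at 7.95, had the highest interferon gene mean of its group, 6.22. As a description, deviations from the group means correlated at r = 0.66 (rho = 0.62) over the 19 arrays, whose values share an array and its normalization. Lgals3bp ran about as closely with other lists, at r = -0.57 (rho = -0.68) with the glycan branching enzymes, -0.54 with the membrane damage genes and 0.53 with endothelial and stromal markers. Of 90 pairs of a galectin gene and a gene list compared in this way, those with a higher r were Lgals8 with the macrophage markers (0.72) and Lgals1 with the endothelial and stromal markers (0.67). By size of rho, Lgals3bp ran more closely with the glycan branching enzymes (-0.681) than with the interferon genes (0.619). Also larger in size were Lgals8 with the macrophage markers (0.670) and Lgals3 with the membrane damage genes (0.639). So were Lgals1 with the glycan branching enzymes (-0.639) and Lgals1 with the endothelial and stromal markers (0.625). Lgals9, whose window held more of the interferon patterns, correlated with the interferon list at only r = 0.25 (rho = 0.26). The genes whose centred values lay closest to those of Lgals3bp over the 19 arrays were Irgm1, an immunity-related GTPase gene, and Oas3, an antiviral oligoadenylate synthetase gene, with root mean square differences of 0.24 and 0.32 on the log2 scale. Both are known interferon-inducible genes, and their promoter windows held 2 and 1 matches to the response element core, which the Lgals3bp window lacked. They were picked for their likeness to Lgals3bp, and any part of interferon in its values was not tested.

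**Figure D2:**
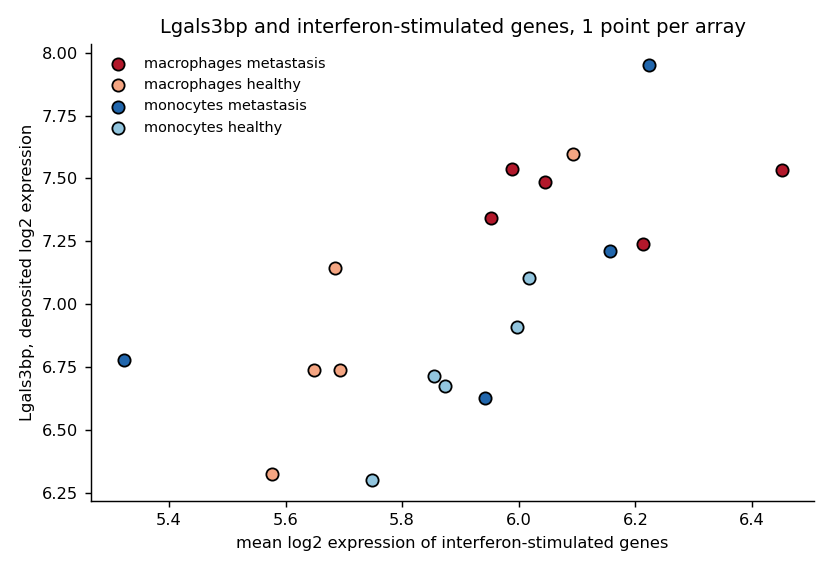
Lgals3bp (vertical axis, deposited log2 expression) against the mean log2 expression of 17 interferon-stimulated genes (horizontal axis), 1 point per array, coloured by group. Within most groups the arrays with more interferon-stimulated expression also have more Lgals3bp, and the healthy macrophages run from 6.33 to 7.60.

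Galectin-8 is known to mark ruptured endosomes and to recruit autophagy adaptors to them. Lgals8 lay at 7.91, 8.05, 8.20, 8.14 and 8.05 in macrophages from metastasis, against 8.29, 7.77, 8.14, 8.20 and 7.81 in macrophages from healthy marrow. It lay at 8.19, 8.32, 8.44 and 8.28 in monocytes from metastasis, against 8.07, 8.20, 8.25, 8.12 and 8.03 in monocytes from healthy marrow. All groups overlapped their neighbours, and the healthy macrophage arrays spanned the widest range. The metastasis differences were 0.02 ± 0.10 (SE) in macrophages, with an interval of -0.18 to 0.23, and 0.18 ± 0.11 in monocytes, with an interval of -0.04 to 0.40. Neither passed. Macrophages minus monocytes stood at -0.24 ± 0.11 in metastasis (adjusted p = 0.0983 by limma, but 0.0377 with equal array medians) and at -0.09 ± 0.10 in healthy marrow (adjusted p = 0.573). The group means stood in the order of those of Lgals1, and no neighbours differed by the test.

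Galectin-9 is a ligand of the checkpoint receptor TIM-3, the product of Havcr2. Lgals9 stood at 9.49, 9.24, 9.56, 9.49 and 9.51 in macrophages from metastasis, against 9.05, 9.28, 9.42, 9.38 and 9.56 in macrophages from healthy marrow. It stood at 9.18, 9.57, 9.15 and 9.28 in monocytes from metastasis, against 8.96, 8.78, 9.11, 9.15 and 9.20 in monocytes from healthy marrow. The groups overlapped in each cell type, and the highest monocyte array, replicate 2 of metastasis, was also the highest for Lgals3bp. Macrophages of healthy marrow were higher than monocytes by 0.30 ± 0.11 (SE, adjusted p = 0.042 by limma). That call was lost in 10 of 26 alternatives, up to an adjusted p of 0.135 without monocytes healthy replicate 2, and in a fit of the healthy arrays alone (0.0677). In metastasis the same difference was 0.16 ± 0.11 and did not pass (adjusted p = 0.348). The metastasis differences were 0.12 ± 0.11 in macrophages, with an interval of -0.11 to 0.34 (0.047 without macrophages healthy replicate 1), and 0.25 ± 0.11 in monocytes, with an interval of 0.02 to 0.49 (adjusted p = 0.604). The order of group means was macrophages from metastasis, macrophages from healthy marrow, monocytes from metastasis, monocytes from healthy marrow. No neighbours in it differed by the test, among them macrophages from healthy marrow and monocytes from metastasis (0.05 ± 0.11, adjusted p = 0.824), where 28.3% of all genes passed. Macrophages from metastasis were above monocytes from healthy marrow by 0.42 ± 0.11 (adjusted p = 0.00498).

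**Figure D3:**
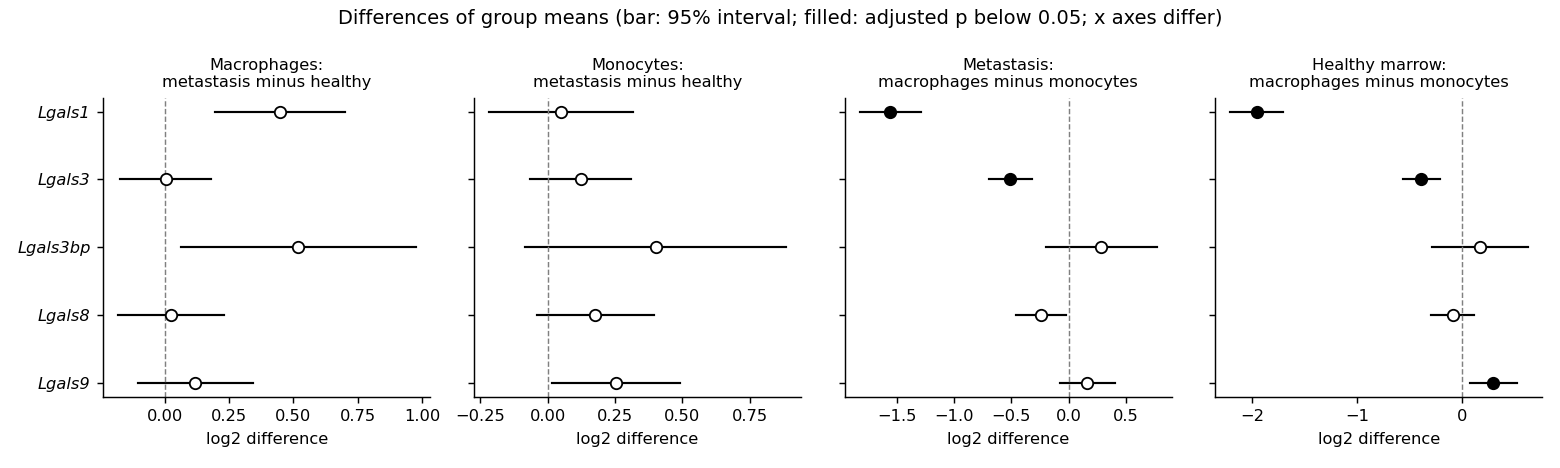
Differences of group means on the log2 scale (horizontal axes, a different range in each panel) for the 5 galectin genes in 4 comparisons, with 95% intervals. Points are filled where the adjusted p was below 0.05, which is so for Lgals1 and Lgals3 in both comparisons of the cell types and for Lgals9 in healthy marrow.

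Counted over the 5 genes, none passed between metastasis and healthy marrow in macrophages, where 1.23% of all genes did, and 2 had an unadjusted p under 0.05, against 13.6% of all genes. None passed in monocytes, where 0.514% of all genes did, and 1 had an unadjusted p under 0.05, against 7.58% of all genes. All 5 mean differences were above 0 in both cell types, where 50.6% and 46.7% of all genes were, although those of Lgals3 and Lgals8 in macrophages were near 0 and changed sign in some alternatives. The median over the 5 was 0.12 in macrophages and 0.18 in monocytes, against 0.00 and -0.01 over all genes. Between the cell types, 2 were lower in macrophages, none higher and 3 not called in metastasis, where 16.9% of all genes were lower and 9.6% higher. In healthy marrow 2 were lower, 1 higher and 2 not called, where 18% of all genes were lower and 10% higher. Those shares include dim genes. With dim genes left out, 50.6% of 11005 genes were called in metastasis and 52.2% in healthy marrow. None of the 5 passed the test of a difference between the cell types in the effect of metastasis, where 0.0619% of all genes did.

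The genes closest in pattern to the other galectins were sought by the same measure among 18790 genes, without antigen receptor segments, small RNAs or transcripts known only by prediction. For Lgals1 the closest were Naaa, an acid amidase gene, at 0.19 and the fatty acid binding protein gene Fabp5 at 0.22. Lgals3 lay closest to Suclg1, which encodes a subunit of succinyl-CoA ligase, at 0.10, and to Nipa2, a magnesium transporter gene, also at 0.10. Lgals8 lay closest to Washc2, which encodes part of the endosomal WASH complex, at 0.09, and to the ferritin heavy chain gene Fth1, also at 0.09. Lgals9 lay closest to the cyclin gene Ccnd3 at 0.11 and to Med21, a Mediator subunit gene, at 0.12. Naaa averaged 7.84 and 7.34 in macrophages from metastasis and from healthy marrow, and 9.32 and 9.09 in the monocyte groups.

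Of 7 further genes of the galectin family, 5 were measured. Lgals2 ran from 2.68 to 3.69 and Lgals12 from 2.78 to 3.39 over all arrays, and neither passed in any comparison. Lgals4, a galectin gene best known from the gut, averaged 5.66 ± 0.21 in macrophages and 4.86 ± 0.23 in monocytes from metastasis (SD, n = 5 and 4). In healthy marrow it averaged 5.71 ± 0.21 in macrophages and 4.55 ± 0.22 in monocytes (SD, n = 5 each). It was thus higher in macrophages by 0.80 ± 0.14 (SE, adjusted p = 0.000102 by limma) and 1.16 ± 0.13 (adjusted p = 3.46e-07), with no overlap between the cell types, the opposite direction to Lgals1 and Lgals3. The mean in healthy monocytes lay near the array medians, a dim level. Genes of other cell types were also mostly higher on macrophage arrays, and their part in the Lgals4 difference was not tested. Lgals7 was higher in macrophages in metastasis (0.34 ± 0.11, adjusted p = 0.0292), a call lost in 9 of 25 alternatives, and stood at 0.14 ± 0.11 in healthy marrow. Its means in metastasis, 4.37 in macrophages and 4.03 in monocytes, lay below every array median, so this was a difference at a dim level. Grifin stood at 0.13 ± 0.10 and 0.15 ± 0.09. None of these 5 passed between metastasis and healthy marrow, and the largest of their differences was that of Lgals4 in monocytes, 0.31 ± 0.14 (adjusted p = 0.599).

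Of 11 genes for enzymes that build the branched and extended glycans that galectins bind, none passed the test between metastasis and healthy marrow. In metastasis 4 were higher and 4 lower in macrophages than in monocytes, where 26.5% of all genes were called. In healthy marrow 4 were higher and 3 lower, where 28% of all genes were called, so the list moved in no common direction. With dim genes left out those shares were 50.6% and 52.2%. C1galt1c1, the chaperone of the core 1 O-glycan enzyme, averaged 7.28 in macrophages and 8.93 in monocytes from metastasis (-1.65 ± 0.13, SE). Gcnt1, which branches core 2 O-glycans, differed by -1.48 ± 0.14. B3gnt2, which extends N-acetyllactosamine chains, was higher in macrophages by 1.00 ± 0.13 and the N-glycan branching gene Mgat4a by 0.57 ± 0.12 in metastasis. In healthy marrow C1galt1c1 and Gcnt1 differed by -1.86 ± 0.12 and -1.18 ± 0.13, and C1galt1, the core 1 enzyme itself, by 0.77 ± 0.11. Between metastasis and healthy marrow B4galt1, a galactosyltransferase gene, stood at -0.02 ± 0.13 in macrophages and -0.06 ± 0.14 in monocytes. The N-glycan trimming gene Man2a1 stood at -0.01 ± 0.11 in macrophages and at 0.37 ± 0.11 in monocytes (adjusted p = 0.238 by limma). Mgat4a differed by slightly more in monocytes, 0.40 ± 0.12, and did not pass either (adjusted p = 0.187). The median of the list was -0.022 in macrophages and 0.015 in monocytes.

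St6gal1, which caps N-acetyllactosamine with alpha-2,6 sialic acid and is known to block binding of galectin-1, fell in macrophages from metastasis. It averaged 6.11 there and 7.27 in macrophages from healthy marrow (-1.16 ± 0.18, SE, adjusted p = 0.00112 by limma). It was the 1 gene that passed among 5 capping and bisecting enzymes, in a comparison where 1.23% of all genes did. B lineage genes moved in the same arrays, with 4 of 9 lower and none higher, where 125 of all 20998 genes were lower. The mean of those 9 genes ran from 4.80 to 5.89 in metastasis and from 6.05 to 6.54 in healthy macrophages, against 3.81 to 3.89 and 3.82 to 4.13 in the monocyte groups. Their part in the fall of St6gal1 was not tested. In monocytes the metastasis difference of St6gal1 was -0.38 ± 0.19, in the same direction, and did not pass (adjusted p = 0.685 by limma). The effect of metastasis in macrophages minus that in monocytes was -0.78 ± 0.26, which did not pass either (adjusted p = 0.415). In healthy marrow St6gal1 was higher in macrophages than in monocytes (1.32 ± 0.18, adjusted p = 4.81e-06), while St3gal4, a sialyltransferase gene, was lower (-0.43 ± 0.10, adjusted p = 0.00204).

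Among 17 genes for glycoproteins that galectins are known to bind, none passed between metastasis and healthy marrow in either cell type. The count was 1 in 3 of 26 alternatives in macrophages, among them the fit without macrophages healthy replicate 5, and in 4 of 26 in monocytes, among them the fit without macrophages healthy replicate 2. Lamp1, a lysosomal membrane glycoprotein gene, stood at 0.06 ± 0.07 (SE) in macrophages and -0.04 ± 0.07 in monocytes, and Ptprc, the CD45 gene, at -0.12 ± 0.08 and -0.10 ± 0.08. Between the cell types, 7 were higher and 4 lower in macrophages in metastasis, where 9.6% of all genes were higher and 16.9% lower. In healthy marrow 6 were higher and 3 lower, where 10% of all genes were higher and 18% lower. With dim genes left out the background was higher. Of 11005 genes, 1804 were then higher and 3760 lower in metastasis, and 1850 higher and 3892 lower in healthy marrow. Trem2, a lipid-sensing receptor gene, differed by -1.71 ± 0.15 and -1.14 ± 0.14, lower in macrophages, and Lamp1 by -0.62 ± 0.07 and -0.71 ± 0.07. P4hb, a protein disulfide isomerase gene whose product binds galectin-9, differed by -0.91 ± 0.09 and -0.99 ± 0.08. Itgam, the CD11b integrin gene, which was also among the monocyte markers, was higher in macrophages by 0.74 ± 0.10 and 0.92 ± 0.10. Cd7, the gene of a galectin-1 receptor on T cells, was higher by 2.52 ± 0.32 in metastasis. There 9 of 9 T and NK cell markers were also higher in macrophages, against 9.6% of all genes. The mean of those markers ran from 5.39 to 6.26 in macrophages and from 3.78 to 3.94 in monocytes, and their part in the result was not tested. Havcr2 averaged 4.02 in macrophages and 3.73 in monocytes from metastasis (0.28 ± 0.14, adjusted p = 0.155 by limma), and 4.00 in macrophages and 3.45 in monocytes of healthy marrow (0.54 ± 0.13, adjusted p = 0.00277). All these means lay below every array median. In healthy marrow 6 of 9 T and NK cell and 5 of 8 dendritic cell markers were also higher in macrophages, and their part was not tested.

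Of 17 genes that act with galectins at damaged membranes, none passed between metastasis and healthy marrow. Optn, an autophagy receptor gene, was higher in macrophages than in monocytes by 2.38 ± 0.17 (SE) in metastasis and 1.93 ± 0.16 in healthy marrow. Trim16, whose product works with galectin-3 at damaged lysosomes, differed by -0.45 ± 0.13, a call lost with quantile normalization (adjusted p = 0.0542), and by -0.69 ± 0.12. Map1lc3a, an LC3 gene of autophagosome membranes, was higher by 0.48 ± 0.10 and 0.40 ± 0.10. In all 2 were higher and 2 lower in metastasis, and 3 were higher and 2 lower in healthy marrow. Over all genes, 26.5% and 28% were called in these comparisons, near the share in the list. With dim genes left out, 50.6% and 52.2% of 11005 genes were called, a higher background. How the list stands against genes of like level was not tested, so the counts say nothing particular of it.

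Of 17 interferon-stimulated genes, 3 rose in macrophages from metastasis, Ifi44 (0.80 ± 0.14, SE), Oas2 (1.28 ± 0.32) and Oasl2 (0.95 ± 0.24), at a list median of 0.34. In that comparison 1.23% of all genes passed in either direction. Ifi44 was dim, at 4.50 in macrophages from metastasis and 3.70 in healthy ones, and was not kept when dim genes were left out. The calls of Oas2 and Oasl2 were lost under 19 and 18 of 26 alternatives, up to adjusted p values of 0.131 and 0.116. In monocytes none of the 17 passed, and the median was 0.03. Between the cell types, 4 were higher and 2 lower in macrophages in metastasis, and 2 were higher and 4 lower in healthy marrow. Of all genes, 26.5% and 28% were called there, and 50.6% and 52.2% with dim genes left out. Ifit2 was higher in macrophages by 1.49 ± 0.12 and 0.91 ± 0.12, and Xaf1 differed by -0.84 ± 0.17 and -0.93 ± 0.16. The mean of the 17 ran from 5.95 to 6.45 in macrophages from metastasis and from 5.58 to 6.09 in macrophages from healthy marrow, and from 5.32 to 6.22 and 5.75 to 6.02 in monocytes. Of 12 markers of epithelial tumour cells none passed between metastasis and healthy marrow in either cell type by limma, and their mean lay between 3.49 and 3.82 on every array.

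**Figure D4:**
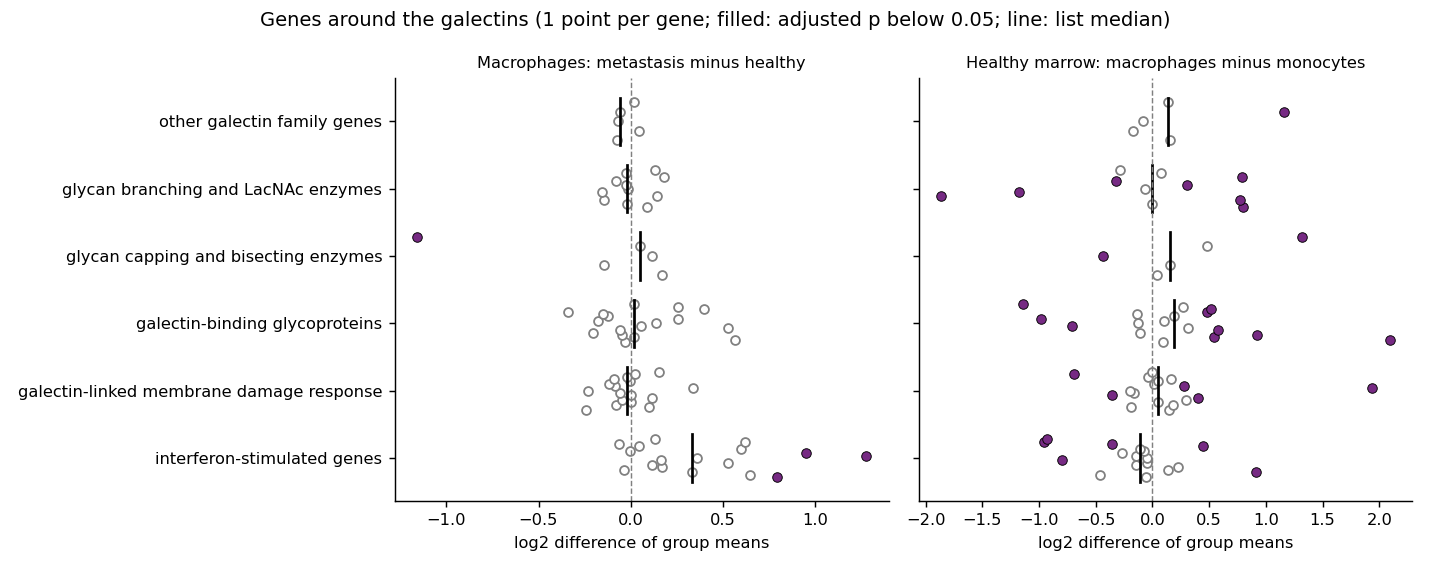
Differences of group means (horizontal axes, log2) for the measured genes of 6 lists around the galectins, 1 point per gene, filled where the adjusted p was below 0.05, with the list median as a line. Between metastasis and healthy macrophages only St6gal1 and 3 interferon-stimulated genes pass, while every list holds genes that pass between the cell types.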

How the data were processed

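Per the submitters' processing notes, the arrays were processed with oligo, an R package; its version and its background correction, normalization and gene summary settings are not stated there. The deposited log2 values (1.38 to 12.6, judged from their range) were used as they stand, with 1 value per gene symbol, none missing, for 20998 genes on 19 arrays. Depth has no meaning for arrays, and their number limits the precision: the median standard error was 0.11 for metastasis against healthy macrophages. Replicate numbers follow accession order.

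Group means of all 19 arrays were fitted with limma 3.58.1 in R 4.3.3 (lmFit, eBayes), with Benjamini-Hochberg adjustment across the whole table and a threshold of 0.05. The fit was also run on simulated data with independent noise and few changed genes. Those settings differ from these data, so that run lends no support to the calls. List genes were named by a rule: up to 4 of those called, ranked by adjusted p, or the 2 with the highest mean where none passed. Only some of these are printed. Havcr2 was named besides, as the receptor of galectin-9, after its values were seen. Members, lists and rules were chosen with earlier results of these data known. Promoter windows came from RefSeq tables (GRCm38.p6).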

Additional observations from a re-analysis of the deposited data

Results flagged for a closer look

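Lgals9 in macrophages from metastasis replicate 2 stood at 9.24, below the other 4 arrays of its group, a gap of 0.76 of the group's whole range. It was the only one of 20 sets of arrays, 5 genes in 4 groups, with such a gap by Dixon's criterion, and chance gives about 1 in 20. Without this array the metastasis difference of Lgals9 in macrophages was 0.17 and did not pass. With each array left out in turn it ran from 0.047 to 0.17, lowest without macrophages healthy replicate 1.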

How the results depend on the processing

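Alternatives comprised a fit on only the arrays of the compared groups, a trended and robust variance model, array weights, dim genes left out (11005 genes kept, above a mean of 4.51), quantile normalization, equal array medians, each of 19 arrays left out in turn, and 3 macrophage arrays left out together (healthy replicates 1 and 5 and metastasis replicate 2). That first fit was not run for the interaction, which needs all 4. No paired analysis was possible because the labels carry no replicate numbers shared between groups. The count of galectin genes that passed in macrophages, 0, was 1 with the trended and robust model and 1 with dim genes left out, and 0 to 1 with 1 array left out; the gene was Lgals1 each time. Fewer genes were adjusted for with dim genes left out, and the cause was otherwise not tested. The other 4 counts stayed within 1.5 times. Lgals3 between metastasis and healthy macrophages turned to -0.022 with array weights, -0.00725 with quantile normalization, -0.017 with equal medians and -0.049 without the 3 arrays, and ran from -0.030 to 0.052 with 1 array left out. With 1 array left out, Lgals8 ran from -0.043 to 0.087 in that comparison, and Lgals3bp from -0.0049 to 0.31 between cell types in healthy marrow and from -0.054 to 0.39 in the interaction. Of 774 list counts, 737 stayed within 1.5 times. The share of all genes called in macrophages was 0.31% with the macrophage arrays alone and 3.13% with dim genes left out. In monocytes it ran from 0.291% without monocytes metastasis replicate 3 to 1.56% with array weights (0.305% without monocytes metastasis replicate 2). For the interaction it ran from 0.019% (macrophages healthy replicate 2 or 3, monocytes healthy replicate 1 or monocytes metastasis replicate 2 left out) to 0.229% without macrophages healthy replicate 5. Between the cell types the share with dim genes left out was 50.6% in metastasis and 52.2% in healthy marrow.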
